A study of Mus musculus with 15 samples.

Results

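Tmem41b, named Stasimon in work on spinal muscular atrophy, was examined in mouse motor neurons together with 3 relatives, Tmem41a, Tmem64 and Vmp1. The 4 genes were taken by symbol, and they are 4 of the 36144 genes of the deposited table. Their transcripts make up 20 of 118489 listed transcripts. The samples were lumbar motor neurons of segments L1 to L3, labelled with cholera toxin subunit B and cut out by laser-capture microdissection at postnatal day 6. The 5 groups had 3 biological replicates each, 15 libraries in all, and a library is named by its group and replicate number, such as WT 1.

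All 5 groups were FVB mice that carried the human SMN2 and SMNΔ7 transgenes, with males and females in equal proportion, so the control group is not free of human SMN. WT stands for Smn+/+ littermates given vehicle, and SMA for Smn-/- mice given vehicle. The other 3 groups were Smn-/- mice injected intraperitoneally each day from postnatal day 0. SMA+MW150 received MW150, an inhibitor of the kinase p38α, at 5 mg/kg. SMA+Pifithrin-alpha received Pifithrin-α, an inhibitor of p53, at 2.2 mg/kg. SMA+SMN-C3 received SMN-C3, which changes the splicing of SMN2, at 3 mg/kg. SMA is shared by the 3 comparisons of a treated group with SMA, and WT by the 4 comparisons with WT, so these comparisons are not independent of each other. The treatment groups were 1 dose each, and no WT mice received a drug.

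TMEM41B and VMP1 are multipass proteins of the endoplasmic reticulum (ER) membrane that move phospholipids between the leaflets of the bilayer, and both act in the growth of autophagosomes and in lipid droplet and lipoprotein formation. TMEM41A and TMEM64 belong to the same VTT (DedA) superfamily, and TMEM64 has been described as a regulator of the ER calcium pump. Tmem41b has a U12-type intron, one of the few introns removed by the minor spliceosome, whose small nuclear ribonucleoproteins are assembled with the help of SMN, the protein that is short in spinal muscular atrophy. Loss of Stasimon function has been linked to p38 and p53 activation in motor neurons of SMA mice.

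Tmem41b (ENSMUSG00000047554.14) lies on the minus strand of GRCm38 at chr7:109972187-109986929, Tmem41a (ENSMUSG00000022856.9) on the minus strand at chr16:21934326-21947552 and Tmem64 (ENSMUSG00000043252.8) on the plus strand at chr4:15265831-15286753. Vmp1 (ENSMUSG00000018171.9) lies on the minus strand at chr11:86583865-86683836, where the microRNA gene Mir21a and the pseudogene Gm11478 overlap it on the same strand. Mir21a lies inside the last exon of the transcript Vmp1-201, so reads from it could count towards Vmp1. Gm11478 lies between annotated exons of Vmp1. The U12-type intron of Tmem41b spans 1506 bases, chr7:109979483-109980988, between 2 coding exons. Its first bases are shown because they carry the U12-type donor, beside those of the first intron that follows coding sequence (3188 bases, chr7:109982774-109985961). That holds for Tmem41b-201 and Tmem41b-202, while in Tmem41b-203 the same intron lies before the reading frame. Each line begins with the last 12 bases of the exon, and capitals mark the first 8 bases of the intron. The windows are chr7:109980961-109981000 and chr7:109985934-109985973, minus strand, written 5′ to 3′.
U12-type intron of Tmem41b: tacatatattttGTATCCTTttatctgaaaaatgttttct
first coding intron of Tmem41b: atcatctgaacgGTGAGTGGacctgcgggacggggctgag
The first line was read in the annotated transcript Tmem41b-207, which runs past the splice site, and the second in Tmem41b-209, which does the same at the first coding intron. Of 42688 annotated mouse introns whose start could be read in this way inside another transcript of the same gene, 184 (0.431%), in 154 genes, began with the U12-type letters GTATCCTT or their AT counterpart, on the transcribed strand. The letters are a description of the donor site and no branch point was read. The exon after the U12-type intron begins with tttgcaaacatt in 4 transcripts, and in Tmem41b-206, annotated as a target of nonsense-mediated decay, it begins 7 bases earlier, marked in capitals.
Tmem41b-206, start of that exon: TTAACAGtttgcaaacatt

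The libraries fitted their labels at the Smn locus, and motor neuron markers were present beside those of other cells. Smn1, the mouse gene for SMN, stood at 8.97, 16.5 and 23.3 TPM (transcript abundance scaled to gene length and library total) in WT and between 0 and 1.50 TPM in the 12 Smn-/- libraries (SMA against WT: log2 difference -3.84, SE 0.42, limma adjusted p = 0.000154). All 8 motor neuron markers were at 1 TPM or more in every library, and their summed level was lowest in SMA+Pifithrin-alpha 3 (1556 TPM) and highest in SMA+SMN-C3 2 (4432 TPM). Markers of other cells were present too, with a summed level over the 15 libraries of 708 to 1775 TPM for 6 astrocyte genes, 414 to 5314 TPM for 7 genes of the oligodendrocyte lineage, 8.15 to 79.7 TPM for 5 vascular genes and 14.4 to 52.2 TPM for 6 interneuron genes. The 8 microglial genes summed to 18.8 to 47.2 TPM in WT and to 83.5 to 129 TPM in SMA, and the part of these cells in the differences between SMA and WT was not tested. WT 1 and SMA+Pifithrin-alpha 3 stood apart: mitochondrially encoded genes took 21.9% and 20.4% of their TPM, against 3.76% to 12.6% in the other 13 libraries. For the 4 genes, several of the estimates that rest on those libraries are given below with and without them, and the rest with all libraries only. Other genes, the pathway lists apart from the median of the autophagosome genes, and the shares of transcripts are given with all libraries only.

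All 4 genes were expressed, at very different levels. TPM divides by transcript length, so levels can be set side by side between genes. Vmp1 was highest, at 70.2 to 175 TPM over the 15 libraries (median 104), and Tmem64 lowest, at 0.734 to 6.02 TPM (median 4.35). Tmem41b (36.8 to 66.2 TPM, median 44.3) and Tmem41a (10.9 to 69.0 TPM, median 50.1) lay between them. The highest Tmem41b library stood 1.80 times above the lowest, against 2.49 times for Vmp1, 6.34 times for Tmem41a and 8.20 times for Tmem64. Without WT 1 these were 1.80, 2.49, 1.99 and 2.27 times in the same order, so the wide range of the last pair came from that library.

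Tmem41b, the phospholipid scramblase with the U12-type intron, showed no difference between SMA and WT motor neurons that passed the test. The WT libraries had 42.5, 38.1 and 44.3 TPM, and the SMA libraries 56.5, 44.8 and 37.1 TPM. Among treated mice, those given MW150 had 66.2, 52.1 and 48.3 TPM, those given Pifithrin-alpha 45.5, 49.0 and 40.3 TPM, and those given SMN-C3 38.5, 36.8 and 39.6 TPM. The SMA libraries lay on both sides of WT, all 3 MW150 libraries lay above every WT and SMN-C3 library, and the SMN-C3 group was the tightest.

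In order of group mean, Tmem41b was at 38.3 ± 1.45 TPM in SMA+SMN-C3, 41.6 ± 3.16 in WT, 44.97 ± 4.37 in SMA+Pifithrin-alpha, 46.1 ± 9.80 in SMA and 55.5 ± 9.38 in SMA+MW150 (SD, n = 3 each). The libraries of each neighbouring pair of groups in that order overlapped. SMA differed from WT by 0.13 on the log2(TPM + 1) scale (SE 0.23, 95% interval -0.37 to 0.62, limma adjusted p = 0.795). That interval does not reach a 2-fold change (1 on the log2 scale) in either direction, and the median gene differed by 0.24 in the same comparison. Without WT 1 the Tmem41b value was 0.14. With median-of-ratios scaling it was -0.12, and without SMA 1 it was -0.03, so its sign was not settled.

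**Figure D1:**
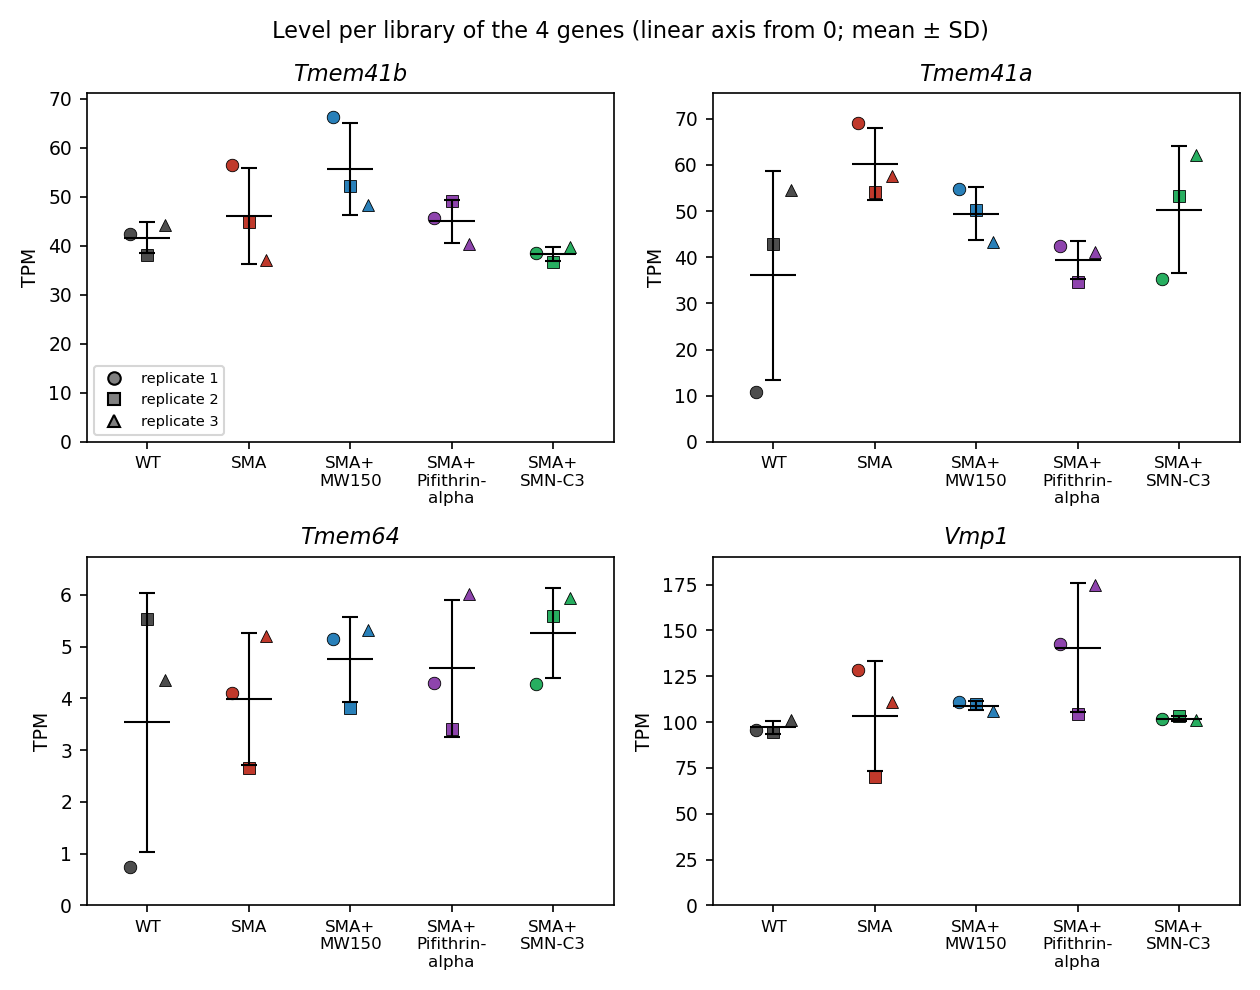
Level of Tmem41b, Tmem41a, Tmem64 and Vmp1 in each of the 15 libraries, in TPM on a linear axis from 0, by group; symbols mark the replicate number, and bars the mean ± SD of 3 libraries. WT 1 is the lowest library for Tmem41a (10.9 TPM) and for Tmem64 (0.734 TPM), and the 3 MW150 libraries lie above the 3 WT libraries for Tmem41b.

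Among the treated groups, Tmem41b differed from SMA by 0.27 with MW150 (95% interval -0.22 to 0.76, limma adjusted p = 1.0), by -0.02 with Pifithrin-alpha (-0.51 to 0.47, adjusted p = 0.976) and by -0.24 with SMN-C3 (-0.73 to 0.25, adjusted p = 0.832). With median-of-ratios scaling the Pifithrin-alpha value became 0.24 and the SMN-C3 value 0.02. Against WT the difference was 0.40 with MW150 (SE 0.23, limma adjusted p = 0.519), with no overlap between the libraries of the pair. It was 0.11 with Pifithrin-alpha (limma adjusted p = 0.989) and -0.12 with SMN-C3 (adjusted p = 0.881), with overlap in both. The median gene stood at 0.32 in the MW150 comparison with WT, and with median-of-ratios scaling the Tmem41b difference was 0.07. MW150 and SMN-C3, the groups at the ends of the order, differed by 0.51 (SE 0.23, limma adjusted p = 0.414), a comparison chosen after the levels were seen. Their libraries did not overlap, as was the case for 29.6% of all tested genes, and the median gene differed by 0.30. With median-of-ratios scaling this difference was 0.17 (limma adjusted p = 0.848).

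Tmem41a, which encodes a relative of TMEM41B, had the largest estimate of the 4 genes between SMA and WT, and it turned on 1 library. WT mice had 10.9, 42.8 and 54.5 TPM of it, and SMA mice 69.0, 54.1 and 57.6 TPM. WT 1 lay far below the other libraries and WT 3 lay above SMA 2. The log2 difference was 0.99 (SE 0.42, 95% interval 0.10 to 1.88, limma adjusted p = 0.348), and without WT 1, the library with the highest mitochondrial share, it was 0.30.

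In the treated mice Tmem41a was at 54.7, 50.1 and 43.3 TPM after MW150, at 42.5, 34.7 and 41.1 TPM after Pifithrin-alpha and at 35.3, 53.4 and 62.2 TPM after SMN-C3. The 3 Pifithrin-alpha libraries lay below all SMA and all MW150 libraries. By group mean the order was WT (36.1 ± 22.6 TPM), SMA+Pifithrin-alpha (39.4 ± 4.15), SMA+MW150 (49.4 ± 5.74), SMA+SMN-C3 (50.3 ± 13.7) and SMA (60.2 ± 7.78; SD, n = 3 each), and among neighbours only Pifithrin-alpha and MW150 did not overlap. Pifithrin-alpha differed from SMA by -0.60 (SE 0.42, 95% interval -1.48 to 0.29, limma adjusted p = 0.536), with a median of -0.22 over all tested genes. Limma with weights per library, whose estimation stopped before convergence, gave -0.75 (limma adjusted p = 0.0032). That was the sole call of the 28 tests under any setting tried. The share of all genes called with these weights was not counted. Without SMA+Pifithrin-alpha 3 the value was -0.63. The differences from SMA were -0.28 with MW150 (limma adjusted p = 1.0) and -0.29 with SMN-C3 (adjusted p = 0.894). Against WT they were 0.71, 0.39 and 0.70 for MW150, Pifithrin-alpha and SMN-C3 (lowest limma adjusted p = 0.519), and without WT 1 they were 0.025, -0.29 and 0.019.

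Tmem64, near the lower end of what was measured, showed the same low library. Its WT libraries had 0.734, 5.53 and 4.35 TPM, its SMA libraries 4.11, 2.66 and 5.20 TPM and its MW150 libraries 5.14, 3.82 and 5.32 TPM. Levels were 4.30, 3.41 and 6.02 TPM after Pifithrin-alpha and 4.29, 5.60 and 5.93 TPM after SMN-C3. All 5 groups overlapped in every comparison, and apart from WT 1 no library was below 2.66 TPM. SMA differed from WT by 0.31 (SE 0.44, 95% interval -0.61 to 1.23, limma adjusted p = 0.725), and without WT 1 by -0.28. The 3 treated groups differed from SMA by 0.17 to 0.35, with a lowest limma adjusted p of 0.873; the lowest of these, with Pifithrin-alpha, was -0.04 without SMA 2 and -0.01 without SMA+Pifithrin-alpha 3. Against WT the differences were 0.54, 0.48 and 0.67 for MW150, Pifithrin-alpha and SMN-C3 (lowest limma adjusted p = 0.59), and -0.05, -0.11 and 0.08 without WT 1.

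Vmp1, the partner of TMEM41B in lipid scrambling and autophagosome growth, varied least with SMN-C3, MW150 and in WT (SD 1.15, 2.52 and 3.43 TPM, n = 3 each) and most in SMA and with Pifithrin-alpha (SD 29.9 and 35.2 TPM). WT libraries had 95.4, 94.8 and 101 TPM, SMA libraries 128, 70.2 and 111 TPM and MW150 libraries 111, 110 and 106 TPM. Vmp1 was at 143, 104 and 175 TPM after Pifithrin-alpha and at 101, 103 and 101 TPM after SMN-C3. SMA libraries lay both above and below all WT libraries, while every library of the 3 treated groups lay above WT 3, the highest WT library, although SMA+SMN-C3 3 (101.04 TPM) and WT 3 (100.99 TPM) were nearly level.

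SMA differed from WT in Vmp1 by 0.05 (SE 0.25, 95% interval -0.48 to 0.57, limma adjusted p = 0.938); the value was -0.21 with median-of-ratios scaling, -0.07 with mitochondrial genes left out, -0.13 without SMA 1 and -0.03 without SMA 3. Pifithrin-alpha gave the largest Vmp1 estimates, 0.50 against WT (95% interval -0.03 to 1.02, limma adjusted p = 0.877) and 0.45 against SMA (-0.07 to 0.98, limma adjusted p = 0.476). Without SMA+Pifithrin-alpha 3 these were 0.33 and 0.28, and the second was 0.20 without SMA 2. MW150 differed from SMA by 0.12 (limma adjusted p = 1.0) and from WT by 0.17 (adjusted p = 0.754), and the first was -0.13 without SMA 2. SMN-C3 differed from SMA by 0.03 (limma adjusted p = 0.988) and from WT by 0.07 (adjusted p = 0.937), and the first was -0.23 without SMA 2.

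**Figure D2:**
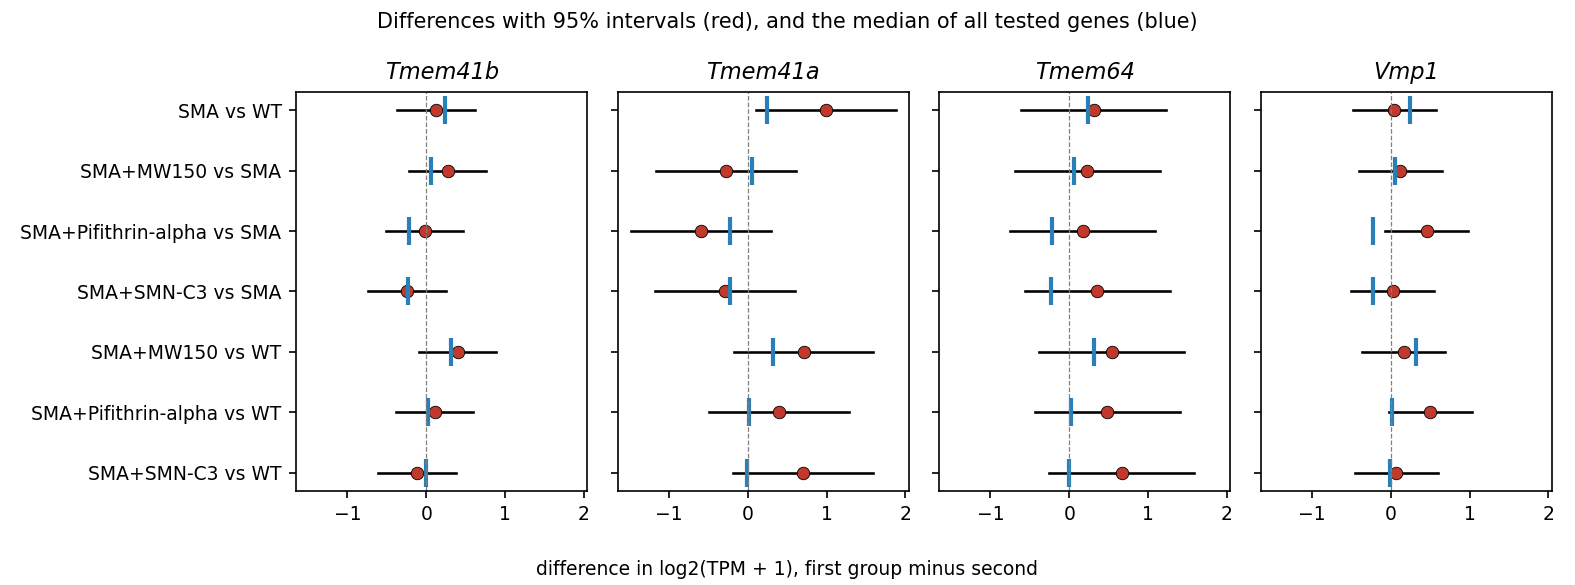
Differences in log2(TPM + 1) of the 4 genes in 7 comparisons (red points) with their 95% intervals from limma (black lines), and the median difference of all 15425 tested genes in the same comparison (blue ticks). The interval of Tmem41a between SMA and WT (0.10 to 1.88) is the 1 interval of the 28 that leaves out 0. Without WT 1 that difference was 0.30.

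None of the 28 tests of the 4 genes over these 7 comparisons passed an adjusted p of 0.05 (limma, Benjamini-Hochberg over 15425 genes), and 1 had an unadjusted p under 0.05. That was Tmem41a between SMA and WT, where the difference was 0.30 without WT 1. The share of all tested genes with such an unadjusted p was not counted. The lowest adjusted p was 0.348. Few genes passed at all: 0.363% of those tested between SMA and WT, and, against SMA, 0.00648% for MW150, 0.00648% for Pifithrin-alpha and 0.0648% for SMN-C3. Against WT the shares were 0.143% for MW150, 0.117% for Pifithrin-alpha and 0.0194% for SMN-C3, and between MW150 and SMN-C3 0.00648%. A moderated F test over the 5 groups called 0.22% of genes, and its adjusted p was 0.619 for Tmem41b, 0.594 for Tmem41a, 0.759 for Tmem64 and 0.623 for Vmp1. With the weights per library that adjusted p was 0.0324 for Tmem41b, 0.000239 for Tmem41a and 0.0298 for Tmem64. How many of all tested genes the F test called with those weights was not counted. In simulated libraries of this size the same procedure found 0% of genes changed by 1 on the log2 scale and 89% of those changed by 2, so a 2-fold change could go uncalled at this sample size. The changed genes were drawn from those with a mean log2(TPM + 1) of at least 4. These rates therefore do not cover lower genes such as Tmem64, and they rest on 1 draw for each size of change.

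In 5 of the 28 pairs of groups the libraries of a gene did not overlap. These were Tmem41a between Pifithrin-alpha and SMA, Tmem41b between MW150 and WT, and Vmp1 between each treated group and WT. Over all tested genes the share without overlap was 18.3% between SMA and WT, 10.9%, 15.3% and 20.7% for MW150, Pifithrin-alpha and SMN-C3 against SMA, and 19.9%, 6.87% and 12.8% for the same groups against WT.

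The 9 annotated transcripts of Tmem41b differ at both ends and in their inner exons, among them those around the U12-type intron. The last exon has 2765 bases in Tmem41b-201, 1467 in Tmem41b-202 and 1648 in Tmem41b-203. Tmem41b-203 was the main form in every library, at 51.7% to 73.7% of the gene's TPM and 27.9 TPM on average. Its annotated reading frame has 672 bases (224 codons) and starts further in than the 873 bases (291 codons) of Tmem41b-201 and Tmem41b-202. Tmem41b-204 skips the exons on both sides of the U12-type intron, Tmem41b-208 skips the exon before these, and Tmem41b-205, Tmem41b-207 and Tmem41b-209 are annotated as retaining intron sequence. Transcript levels from short reads are estimates that divide shared reads between forms, and small ones such as Tmem41b-204, listed at 0 in 7 libraries, are uncertain.

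**Figure D3:**
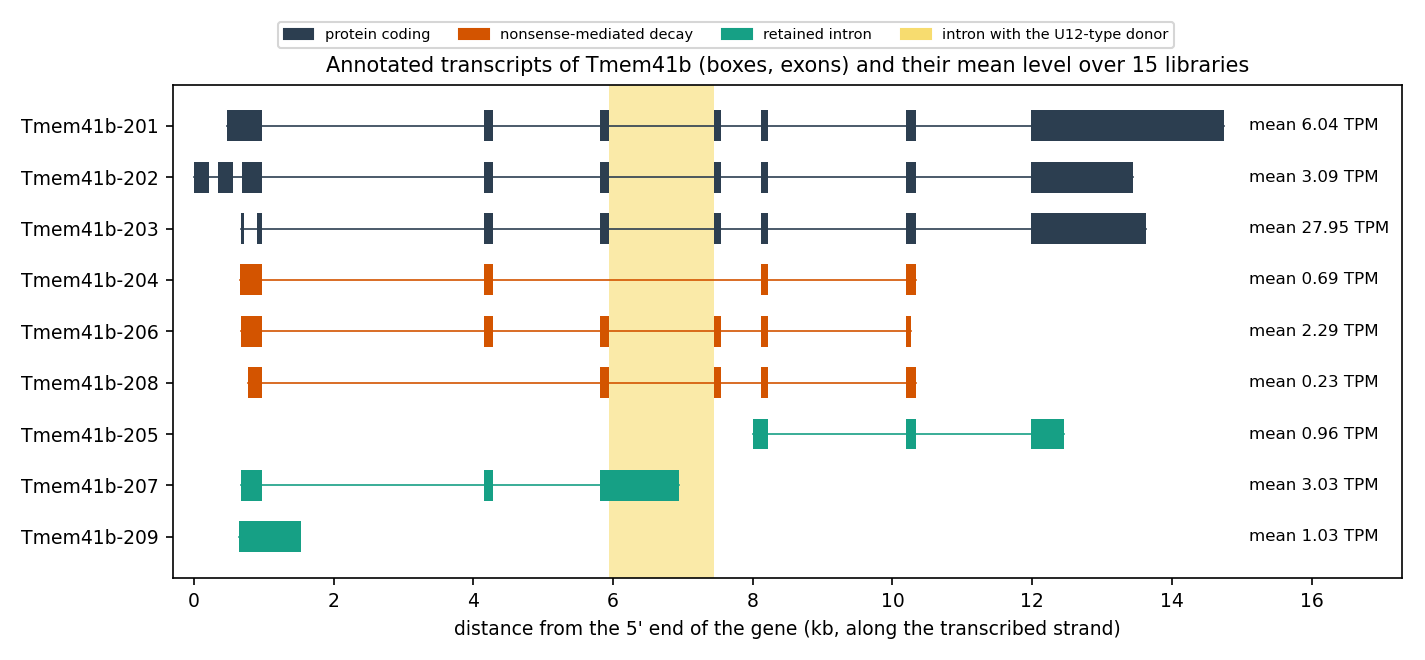
The 9 annotated transcripts of Tmem41b by distance from the 5′ end of the gene in kb along the transcribed strand, with exons as boxes, colours for the annotated class and the intron with the U12-type donor shaded; the mean TPM over 15 libraries stands at the right. Tmem41b-207 is the 1 transcript whose exon runs on from the donor end of the shaded intron.

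Tmem41b-207, which runs through the donor letters printed above, was lowest with SMN-C3. It has 1544 bases, of which 999 (64.7%) lie in the U12-type intron, covering 66.3% of that intron. WT libraries held 4.88, 3.08 and 4.31 TPM of it, SMA libraries 4.04, 1.67 and 2.05 TPM and MW150 libraries 7.47, 5.44 and 3.88 TPM. The level was 3.32, 3.54 and 0.273 TPM after Pifithrin-alpha and 0.0281, 1.20 and 0.243 TPM after SMN-C3. All 3 libraries of SMN-C3 mice were below every WT, SMA and MW150 library, and SMA was not above WT. As a share of the gene's TPM the transcript made up 9.77% ± 1.72 in WT, 5.47% ± 1.71 in SMA, 9.92% ± 1.70 after MW150, 5.06% ± 3.80 after Pifithrin-alpha and 1.32% ± 1.71 after SMN-C3 (SD, n = 3 each).

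Tmem41b-207 differed between SMA and WT by -0.54 (SE 0.51, 95% interval -1.63 to 0.55, limma adjusted p = 0.649) and between MW150 and SMA by 0.90 (adjusted p = 1.0). SMN-C3 differed from SMA by -1.29 (SE 0.51, limma adjusted p = 0.657) and from WT by -1.83 (limma adjusted p = 0.42). MW150 was above SMN-C3 by 2.19 (SE 0.51, 95% interval 1.10 to 3.28, limma adjusted p = 0.131). Without WT 1 and SMA+Pifithrin-alpha 3, which are in neither group but share the estimate of the spread, the limma adjusted p of that last difference was 0.0273. Over the other alternatives, including each library of the pair left out, it ranged from 0.162 to 0.38. Leaving out WT 1 and SMA+Pifithrin-alpha 3 was chosen after seeing the data. The share of all transcripts called without them was not counted, so the 0.0273 has no background. With a pseudocount of 0.1 the differences of SMN-C3 from SMA and from WT and of MW150 from SMN-C3 were -2.70, -3.42 and 3.84 (limma adjusted p 0.535, 0.294 and 0.165), since a smaller pseudocount widens differences at levels under 1 TPM. The 3 pairs of groups without overlap that involve SMN-C3 compare with 16.1% of all tested transcripts against SMA, 12.4% against WT and 26.0% against MW150. The transcript was singled out after its values were seen.

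**Figure D4:**
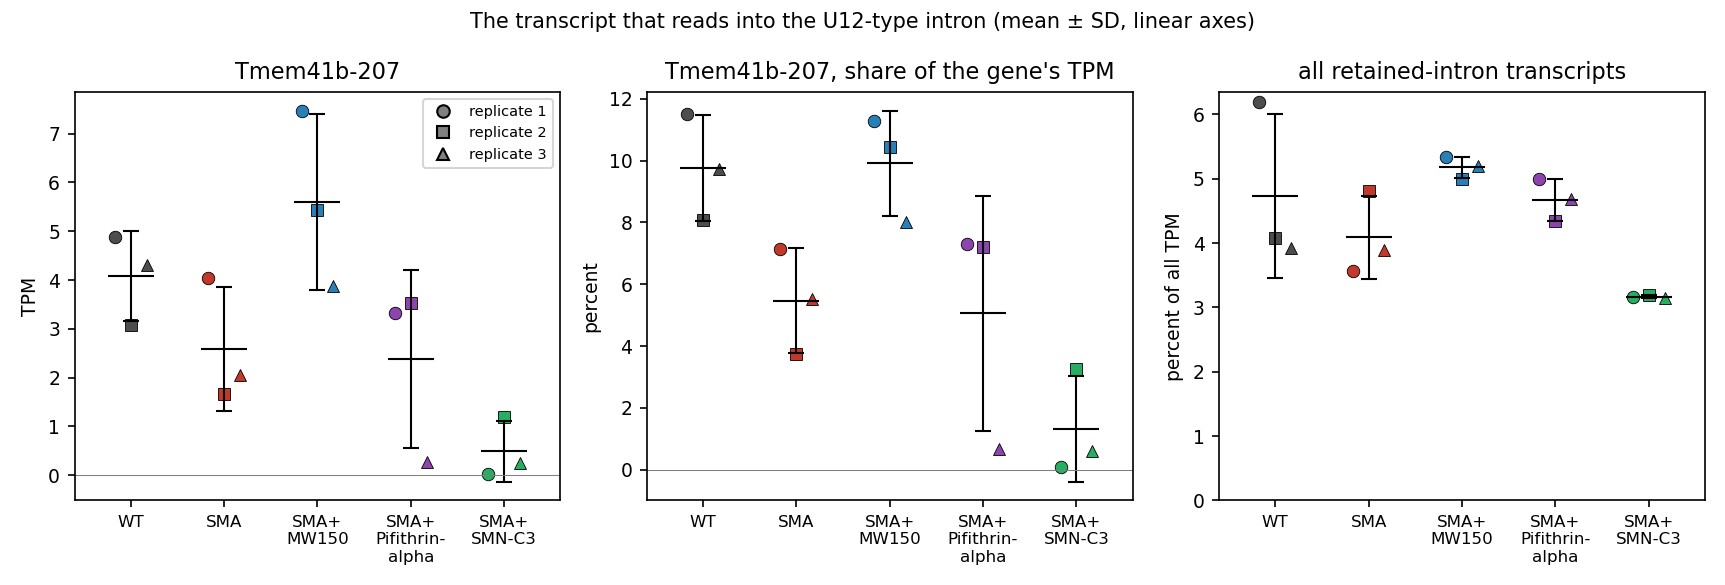
Tmem41b-207 in TPM (left), as a percent of the TPM of Tmem41b (middle), and all annotated retained-intron transcripts as a percent of each library's TPM (right), by group on linear axes; symbols mark the replicate number and bars the mean ± SD of 3 libraries. The SMN-C3 libraries are lowest as a group in all 3 panels, at 0.0281 to 1.20 TPM on the left and 3.15% to 3.20% on the right.

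Intron-retaining transcripts of other genes were examined for comparison. Over all genes, transcripts annotated as retained introns took 3.15% to 3.20% of TPM in the 3 SMN-C3 libraries, against 3.56% to 6.20% in the other 12, and the part of this in the Tmem41b-207 result was not tested. Among 7744 tested retained-intron transcripts the median difference of SMN-C3 from SMA was -0.36, with 76.3% of estimates below 0, and over all 41719 tested transcripts it was -0.22, with 68.0% below 0. Limma called 1 of the 7744 lower and 0 higher, and 628 had an unadjusted p under 0.05. For 50 of the retained-intron transcripts, from 47 genes, the sequence runs past a U12-type donor as in Tmem41b-207. Their median was -0.49, with 86.0% below 0. Only Tmem41b-207 itself, 1 of the 50, lay at or below the Tmem41b-207 value, as did 386 of the 7744 and 1582 of the 41719. The transcript was singled out after its values were seen, so its place among the 50 is a description. Limma called 0 of the 50 against SMA, and 6 had an unadjusted p under 0.05, as had 2872 of all 41719 tested transcripts. Against WT the medians were -0.27 for the 50, -0.32 for all retained introns and -0.01 for all transcripts. MW150 stood above SMN-C3 by a median of 0.91 in the 50, 0.75 in all retained introns and 0.33 in all transcripts.

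The coding forms of Tmem41b and the forms of its relatives showed no difference that passed the test. For Tmem41b-201, WT libraries had 0.278, 3.63 and 5.27 TPM and SMA libraries 5.93, 7.29 and 8.50 TPM, without overlap, as for 15.8% of all tested transcripts. The difference was 1.29 (SE 0.48, limma adjusted p = 0.337), and it was 0.60 without WT 1. The main form Tmem41b-203 had 30.1, 21.9 and 26.3 TPM in the WT libraries and 31.3, 28.2 and 21.5 TPM in those of SMA, a difference of 0.04 (SE 0.28, limma adjusted p = 0.959). Tmem41b-206, with the earlier exon start, had 7.14, 1.63 and 2.34 TPM in the WT libraries and 8.26 TPM in SMA 1, and was listed at 0 in SMA 2 and SMA 3.

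Tmem41a was mostly its coding form Tmem41a-201, with 67.8% to 98.0% of the gene's TPM. The remainder, Tmem41a-202, is annotated as a target of nonsense-mediated decay, and its share was highest in SMA+Pifithrin-alpha 3 (32.2%) and WT 1 (27.7%), the libraries with the most mitochondrial RNA. Vmp1 was divided between its coding form Vmp1-201 (37.4% to 60.5%) and a transcript of 749 bases with no annotated reading frame (34.2% to 58.9%). The 175 TPM of Vmp1 in SMA+Pifithrin-alpha 3 were 103 TPM of the 749-base form and 65.2 TPM of Vmp1-201. In the other 14 libraries that form was between 27.5 and 53.2 TPM, and the Vmp1-201 level of SMA+Pifithrin-alpha 3 lay within its range of 39.2 to 77.6 TPM over all libraries.

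**Figure D5:**
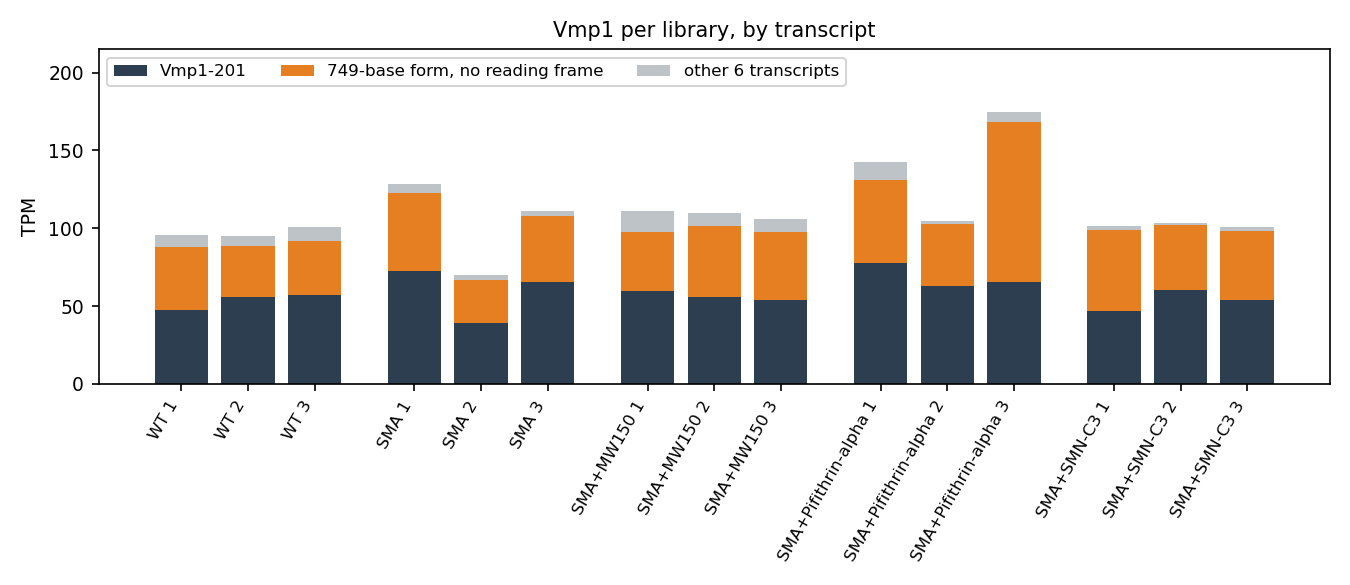
Vmp1 in each library in TPM on a linear axis from 0, divided into Vmp1-201 (coding), the 749-base form and the sum of the other 6 transcripts. SMA+Pifithrin-alpha 3 has the tallest bar (175 TPM), 103 TPM of it from the 749-base form.

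Vmp1-203, another form without a reading frame, had 7.04, 5.94 and 0.954 TPM in the WT libraries, 0, 0.888 and 0.196 TPM in those of SMA and 8.47, 4.99 and 2.44 TPM in those of MW150. It had 4.81, 0.690 and 0 TPM after Pifithrin-alpha and 0.0746, 0.114 and 1.31 TPM after SMN-C3, so SMA and SMN-C3 were both low. The differences were -1.86 for SMA against WT (limma adjusted p = 0.329), 2.15 for MW150 against SMA (adjusted p = 0.819), and for SMN-C3 -1.77 against WT (adjusted p = 0.603) and 0.10 against SMA (adjusted p = 0.993). The first pair did not overlap and neither did the second, as for 15.8% and 12.3% of all tested transcripts, and with a pseudocount of 0.1 their differences were -3.53 and 3.96. Of the 20 transcripts 17 could be tested, and Tmem41b-208 and 2 short forms of Vmp1 were too low. Over 8 comparisons, 0 of 136 tests passed limma's adjusted p of 0.05 and 14 had an unadjusted p under 0.05. Among all 41719 tested transcripts, the number with such a p ran from 1884 (MW150 against SMA) to 5120 (MW150 against SMN-C3) per comparison. The share of all transcripts called was 0.221% between SMA and WT, and 0.0024%, 0.00479% and 0.012% for MW150, Pifithrin-alpha and SMN-C3 against SMA. Against WT it was 0.0911%, 0.0503% and 0.0288% for the same 3 groups, it was 0.0192% between MW150 and SMN-C3, and 0.0815% in the F test over 5 groups, where the lowest adjusted p of the 17 was 0.32. Shares of the main form of Tmem41b, Tmem41a and Vmp1 were compared in 21 exact two-sided permutation tests, in which 3 libraries against 3 cannot give a p below 0.1. The lowest exact p was 0.1 (Vmp1-201, 51.7% with MW150 against 57.0% in SMA), and all adjusted values were 1.0.

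The pathways in which these proteins act gave no call either. Of 37 genes of autophagosome formation, all tested, limma called 0 between SMA and WT. An unadjusted p under 0.05 was found for 4, and 31 had estimates above 0. Their median difference was 0.53, against 0.24 over all tested genes, and 0.21 without WT 1. For this list and those below, unadjusted p-values and signs were not counted over all tested genes, so these counts have no background. Wdr45b, a WIPI protein that binds phosphoinositides on the forming autophagosome, was at 50.1 ± 4.30 TPM in SMA and 28.3 ± 4.28 in WT (difference 0.81, SE 0.25, limma adjusted p = 0.222). Of 13 tested genes of lipid droplets and ER lipid synthesis (14 listed), limma called 0, 3 had an unadjusted p under 0.05, and the median was 0.44. Plin3, a lipid droplet coat protein, was at 3.13 ± 1.61 TPM in WT, 7.60 ± 2.01 in SMA and 1.74 ± 1.14 with Pifithrin-alpha (SD, n = 3 each), a difference of -1.71 between the last pair (SE 0.42, limma adjusted p = 0.461). For 14 genes of lipid transfer and ER contact sites, which include the TMEM41B-binding lipid carriers Atg2a and Atg2b, limma called 0, 1 had an unadjusted p under 0.05, and the median was 0.08. Wdr45b, Plin3 and Mapkapk3 below were picked for their low p after the values were seen, and in bulk samples fewer cells of a type and less RNA per cell cannot be told apart.

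Of 14 genes of the p38 pathway, a list that includes Trp53, limma called 0 between SMA and WT, and the median was 0.25. An unadjusted p under 0.05 was found for 3, and Mapkapk3 and Trp53, given below, are among these. Between MW150 and SMA limma also called 0, 1 had an unadjusted p under 0.05, and the median was 0.27, against 0.06 over all tested genes. Mapk14, which encodes p38α, was at 6.39 ± 1.67 TPM in WT, 9.79 ± 2.56 in SMA and 12.7 ± 4.73 with MW150 (SD, n = 3 each). SMA differed from WT in Mapk14 by 0.54 (limma adjusted p = 0.512). Mapkapk3, a kinase activated by p38, was at 0.403 ± 0.573 TPM in WT and 5.92 ± 4.81 in SMA (difference 2.13, limma adjusted p = 0.131). Trp53, which encodes p53, had 14.1, 16.1 and 15.7 TPM in the WT libraries and 50.4, 37.8 and 34.9 TPM in those of SMA (difference 1.35, SE 0.36, limma adjusted p = 0.153).

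Cdkn1a, a target of p53 that encodes the cell cycle inhibitor p21, rose in SMA, from 42.7 ± 6.09 to 1054 ± 427 TPM (SD, n = 3; difference 4.51, SE 0.40, limma adjusted p = 1.83e-05). The MW150 group had 871 ± 258 TPM, the Pifithrin-alpha group 473 ± 260 TPM and the SMN-C3 group 318 ± 5.45 TPM (SD, n = 3 each). The Pifithrin-alpha libraries had 709, 515 and 194 TPM, the last in SMA+Pifithrin-alpha 3 with its high mitochondrial share. The differences of the 3 treated groups from SMA, in the same order, were -0.23, -1.25 and -1.63, with limma adjusted p of 1.0, 0.461 and 0.175. Over these libraries Tmem41b had no such gap between SMA and WT. The genes whose log2 levels were most like those of Tmem41b over the 15 libraries, among 10008 genes with a mean of at least 5 TPM, were Bdp1 (a subunit of the RNA polymerase III factor TFIIIB, Pearson r 0.827), Cers6 (ceramide synthase, 0.826), Arhgap24 (a GTPase-activating protein, 0.818), Supt20 (a SAGA complex subunit, 0.811) and Wdr35 (a ciliary transport protein, 0.809). Tmem41a ranked 5993 (r 0.171) and Vmp1 6890 (r 0.112), and Tmem64 gave r -0.093. These values share libraries and scaling and are descriptions.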

How the data were processed

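The authors deposited TPM values per gene and per transcript. Per the submitters' processing notes, kallisto 0.44.0, DESeq2 and the builds GRCm38.p6 and mm10 were used; the annotation release is not given in the sources used here. Of the transcript identifiers, 98.5% matched GENCODE M21 (GRCm38), which gave coordinates, transcript classes and sequences. Each TPM column summed to 1000000, so the depth is unknown and no counting interval is given. All columns were used.

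limma 3.58.1 (R 4.3.3) was fitted to log2(TPM + 1) with 1 mean per group over all 15 libraries, with a mean-variance trend. The test took in the 15425 genes and 41719 transcripts that reached 1 TPM in 3 or more libraries, with two-sided p-values adjusted by Benjamini-Hochberg within each comparison. Fold changes on this scale understate those of low genes. The p-values rest on the spread within groups, pooled over all 15 libraries and moderated across genes or transcripts. Groups with unlike SDs therefore share 1 estimate of the spread. Intervals are 95% intervals of the fitted difference. The procedure was tested on simulated data (15161 genes, 200 changed, SMA against WT).

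The 4 genes and the lists were chosen with earlier results of these data known. The text names the 4 genes, list genes that were called, Mapk14, Trp53, Smn1, Cdkn1a and the 5 genes most like Tmem41b; single transcripts, Wdr45b, Plin3 and Mapkapk3 were chosen after their values were seen. A planned search for U12-type introns with branch points on a genome was replaced by donors read from transcripts, also after seeing the data. Alternatives were a pseudocount of 0.1, other filters, median-of-ratios scaling, mitochondrial genes left out, library weights, a replicate block, fits of 2 groups only and each library left out. Python 3.11.15 was used for the other steps.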

Additional observations from a re-analysis of the deposited data

How the results depend on the processing

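Under the alternatives run, no gene of the 4 was called except under library weights (estimation stopped before convergence), where the count of called tests was 1 against 0: Tmem41a between Pifithrin-alpha and SMA (-0.75, adjusted p = 0.0032). Library weights also moved the F test over 5 groups to adjusted p 0.0324 for Tmem41b, 0.000239 for Tmem41a and 0.0298 for Tmem64. The share of all genes called under library weights was not counted, so these calls have no background. Some estimates changed sign, with the cause not tested, and these were not only estimates near 0. With the main settings Tmem64 stood at 0.54 for MW150 against WT and at 0.48 for Pifithrin-alpha against WT. Tmem41a stood at 0.39 for Pifithrin-alpha against WT. With median-of-ratios scaling, Tmem41b became -0.12 (SMA against WT), 0.24 (Pifithrin-alpha against SMA) and 0.018 (SMN-C3 against SMA), and Vmp1 -0.21 (SMA against WT) and -0.17 (MW150 against WT). With mitochondrial genes left out, Tmem41b was 0.10 (Pifithrin-alpha against SMA) and Vmp1 -0.065 (SMA against WT) and -0.002 (SMN-C3 against WT). With library weights, Tmem41b was 0.18 (Pifithrin-alpha against SMA), Tmem41a -0.33 (Pifithrin-alpha against WT), Vmp1 -0.006 (SMN-C3 against SMA), and Tmem64 -0.17 (SMA against WT), -0.22 (Pifithrin-alpha against SMA), -0.046 (MW150 against WT) and -0.39 (Pifithrin-alpha against WT). Without WT 1 and SMA+Pifithrin-alpha 3 together, an alternative chosen after seeing the data, the same values were 0.054 for Tmem41b, -0.32 for Tmem41a, and -0.28, -0.011, -0.048 and -0.29 for Tmem64. Leaving out 1 library at a time gave -0.027 to 0.27 for Tmem41b between SMA and WT (negative without SMA 1) and -0.16 to 0.13 between Pifithrin-alpha and SMA (positive without SMA 1 or SMA+Pifithrin-alpha 3). It gave -0.29 to 0.82 for Tmem41a between Pifithrin-alpha and WT (negative without WT 1). For Tmem64 it gave -0.28 to 0.68 (SMA against WT), -0.048 to 0.91 (MW150 against WT) and -0.11 to 0.85 (Pifithrin-alpha against WT), all negative without WT 1, and -0.04 to 0.34 between Pifithrin-alpha and SMA (negative without SMA 2 or SMA+Pifithrin-alpha 3). For Vmp1 it gave -0.13 to 0.30 between SMA and WT (negative without SMA 1 or SMA 3), -0.13 to 0.30 between MW150 and SMA and -0.23 to 0.20 between SMN-C3 and SMA (negative without SMA 2). Same-numbered libraries of different groups had correlations of -0.34 to 0.29 (30 pairs, median 0.01), and libraries of other numbers -0.25 to 0.34 (60 pairs, median 0.01). Of 15 libraries, 4 correlated best with their own number. Libraries were thus not more alike by replicate number, but these values cannot show whether the numbers stand for a pairing of samples. With the replicate number as a block, Tmem41b between SMA and WT stayed at 0.13 (limma adjusted p = 0.806), and the block changed no call of the 4 genes. TPM tables keep no depth, so the precision of the low Tmem64 and Tmem41b-207 values cannot be given.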
